A study of Mus musculus with 13 samples.

Results

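The genes described here are the 84 protein-coding genes of the mouse cytosolic ribosome, chosen by symbol: the Rpl and Rps genes with a number, together with Rplp0, Rplp1, Rplp2, Rpsa and Fau, without ribosomal S6 kinases and without names of pseudogenes. They were found among 22442 genes by matching Ensembl identifiers to the GENCODE M21 annotation of GRCm38. The large (60S) subunit accounted for 51 of them, including 3 genes of its lateral stalk, and the small (40S) subunit for 33. They lay on 20 chromosomes, 14 of them on chromosome 7. Their coding sequences were short, with a median of 469.5 bases and a range of 138 to 1450, beside a median of 1185 over all genes.

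Nearly all of these proteins occur as a single copy in each cytosolic ribosome, and cells make them in matched amounts. Their mRNAs are known as TOP mRNAs: they begin with a C followed by a run of pyrimidines at the cap, and the growth-sensing mTOR pathway switches their translation up or down as a group. A growing oocyte builds and stores ribosomes for the embryo. During meiotic maturation, from the germinal vesicle (GV) stage to metaphase II (MII), transcription is silent, and ribosomal protein mRNAs are a well-known class that loses its poly(A) tails and is translated less.

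Ribosome-protected fragments (RPFs, or footprints) on the coding sequence (CDS) were counted per gene in 11 Ribo-seq libraries, namely 3 of WT GV, 3 of Nat10-ZcKO GV, 2 of WT MII and 3 of Nat10-ZcKO MII oocytes. Each was made from about 100 oocytes of females given PMSG at 21 days of age, and MII oocytes were collected after superovulation. In Nat10-ZcKO the floxed Nat10 gene, which encodes the enzyme that writes N4-acetylcytidine (ac4C) on RNA, is removed by Zp3-Cre in the growing oocyte, so GV and MII oocytes both had lost it during growth; the series' design text instead speaks of tamoxifen for 3 days, and the counts cannot settle which. An acRIP-seq experiment added 1 library of RNA fragments bound by an anti-ac4C antibody and 1 bound by anti-IgG, from about 2000 WT GV oocytes. Those females were also hormone-primed at 21 days of age, and all mice of the study had the C57BL/6J background. The fragments of Ribo-seq were those left by RNase I in the whole lysate, and no step that isolates ribosomes is described. No source used here says which libraries came from separate females, so p-values measure only the spread between libraries.

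The Ribo-seq libraries held 42360 to 279464 counts, except WT MII replicate 2 with 4815. A count of 0 allows up to 10.7 CPM (counts scaled to 1e+06 per library) in the deepest library and 623 CPM in that shallow one, taking 3 counts as the limit; limits and intervals cover counting error only. Nat10 had 1 to 11 counts per library, too few to check the labels. The summed share of 12 oocyte markers (Zp1, Zp2, Zp3, Gdf9 and others) was 5.59 to 11% in 4 GV libraries but 0.0212% and 1.54% in Nat10-ZcKO GV replicates 1 and 2, where 14 adipocyte markers took 1.53% and 0.309% beside 0.0191 to 0.0318% in the 4 others. It was 1.17 to 1.48% in 4 MII libraries and 0.0415% in WT MII replicate 2, with 10 of the 12 at 0. These 3 libraries stand apart, and results that rest on them are given with and without them.

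Because footprints are short, a ribosomal protein gene can be told from its copies only where its sequence is its own, and many processed pseudogenes of this family lie across the mouse genome. The next stretches are shown because they carry this property: each is the middle 28 bases of the longest CDS exon, about the length of a footprint, read from GRCm38.p6 on the strand of the gene, all in lower case since no letter is singled out. The members with many footprints come first and Rpl39, which had none, last.
Rpl8: ctggcccgagcctccgggaactacgcca
Rpl4: gccagcggtaggcaagaaaggaaagaag
Rps3: tgtgagcatcgtggaacctaaagatgaa
Rpl22: tgcgtgttgtcgccaacagcaaagagag
Rpl39: aagaaacaaaagcaaaatcgccctattc

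The Rpl8 stretch (chr15:76904913-76904940, plus strand, exon 4) and the Rpl4 stretch (chr9:64178318-64178345, plus strand, exon 10) had no second exact match on either strand of the assembled chromosomes. The Rps3 stretch (chr7:99479361-99479388, minus strand, exon 6) had 1 other match and the Rpl22 stretch (chr4:152332336-152332363, plus strand, exon 4) had 4 on 4 chromosomes. The Rpl39 stretch (chrX:37084022-37084049, minus strand, exon 2) had 6 on 4 chromosomes. Rpl8 and Rpl4, proteins of the large subunit, had 247 and 87 counts in the WT GV libraries together, whereas Rpl39, also of the large subunit, had 0 in all 11 libraries.

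The cap end of the mRNAs was looked at in the same way, since a pyrimidine start is what the members are known to share. The RefSeq promoter sequences of GRCm38.p6 covered 64 members by symbol. Of these, 14 (21.9%) had an annotated start with a C followed by at least 4 pyrimidines, beside 3.01% of all 27025 genes in that table, searched on the strand of the gene only. Annotated starts can lie some bases from the true cap site, so a start without the run says nothing about the mRNA. Those of 4 genes are shown, with 5 bases before the start and 25 from it, and with the pyrimidine run at the start in capitals.
Rpl14: tctctCTTCTCgctgagcgccgccaacatg
Rplp2: tcttcCTTTCgccgccggacgccgccgagg
Rps21: ccgccCTCCTgcccaatagtgctgcggagg
Rpl35a: ccttcCTCTTTCCgccatcttggcgcctgt

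They lie at chr9:120571512-120571541, chr7:141447646-141447675, chr2:180257374-180257403 and chr16:33056477-33056506 in that order, all on the plus strand. Rpl14, Rplp2 and Rps21 had 31, 21 and 29 counts in the 6 GV libraries together, and Rpl35a had 8.

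In the GV libraries the 84 genes together took 0.234 to 0.368% of the footprints, with the wider spread in Nat10-ZcKO. The WT GV libraries had 0.243, 0.271 and 0.274% of their CDS counts on the members, a mean of 0.262% ± 0.0170 (SD, n = 3), from 1372 counts. The Nat10-ZcKO GV libraries had 0.368, 0.234 and 0.348%, a mean of 0.317% ± 0.0724 (SD, n = 3). The 2 groups overlapped. In such pooled samples fewer cells of a type and less RNA per cell cannot be told apart. The exact 95% interval was 0.218 to 0.269% in the lowest WT library and 0.313 to 0.431% in the highest Nat10-ZcKO library, which is replicate 1, a library that stands apart. The split between the subunits was even, with 55.3% ± 2.33 (SD, n = 3) of member counts on 60S genes in WT GV and 53.7% ± 3.73 (SD, n = 3) in Nat10-ZcKO GV.

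**Figure D1:**
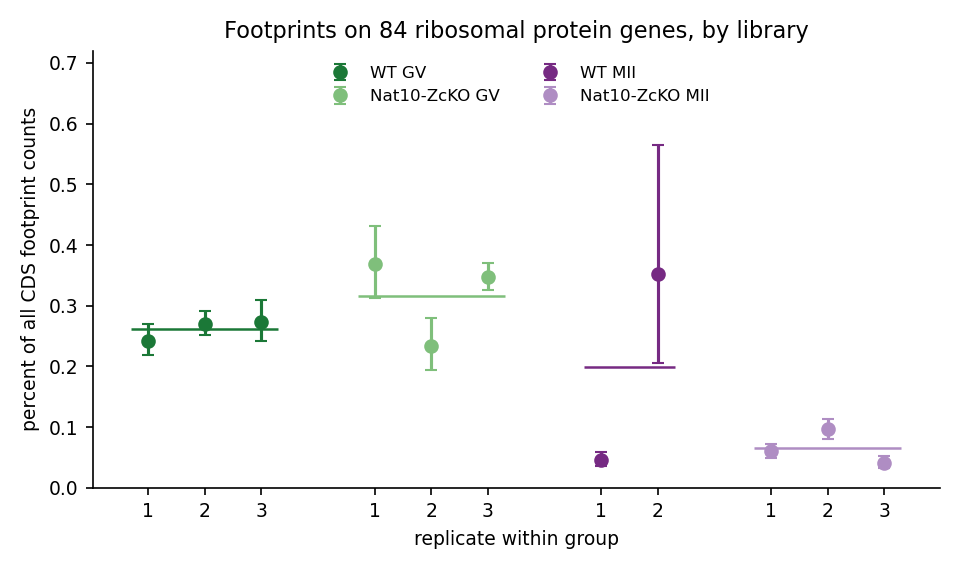
Percent of all CDS footprint counts on the 84 genes (y axis) in each of the 11 Ribo-seq libraries (x axis, replicate number within its group), with exact 95% intervals as bars and the group mean as a line. The 6 GV libraries sit between 0.234 and 0.368%, 4 of the MII libraries between 0.0413 and 0.0961%, and WT MII replicate 2, with 17 member counts, at 0.353% with a wide interval.

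A few genes carried most of this signal. In the WT GV libraries 3 members held 37.3% of all member counts and 10 held 72.5%. Only these 3, Rpl8, Rpl22 and Rps19, reached 100 counts over these libraries, 24 reached 10, 37 had 1 to 9, and 23 had none. Per length of CDS, as TPM (counts per base of CDS, scaled to the same sum in each library), the highest levels in WT GV were those of Rpl22 (973 ± 169, SD, n = 3), a 60S protein that binds RNA outside the ribosome as well, and Rpl8 (744 ± 134), a protein at the core of the 60S near its catalytic centre. Next came Rps14 (449 ± 80.1), a protein of the 40S platform, Rpl41 (422 ± 187), the shortest protein of the set, and Rps26 (383 ± 95.7), a protein at the mRNA exit channel. Rps19, of the 40S head, was at 339 ± 42.9, and Rplp1, an acidic protein of the 60S stalk, at 325 ± 97.2. Rpl37 (265 ± 103) and Rps3 (256 ± 67.4), which lines the mRNA entry channel, were also among the first 10. From Rps14 downward, each of the named levels lay within 1 SD of the next, so their order is not resolved. Rpl8 stood clear of Rps14 by more than both SDs, and Rpl22 and Rpl8 overlapped within theirs.

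In contrast, 18 members had no footprint in any library. Among them were Rpl17, Rpl39, Rpl21, Rpl38, Rpsa, Rps29, Rpl23a, Rpl12 and Rpl19, with 236 to 32 RNA fragments in the acRIP-seq libraries, in falling order. Of the 18, 17 had at least 1 fragment in acRIP-seq, and the exception was Rpl3l, a paralog of Rpl3 known from muscle. Genes without a count in any Ribo-seq library made up 39.0% of all genes in the files.

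The members differed from nearly all other genes in how much of their CDS is repeated elsewhere. A window of 28 bases was called shared when it had an exact match outside the gene's own locus, in the assembled nuclear chromosomes or in a transcript of another gene. The median member had 91.2% of its windows shared, and in 23 members every window was. Over 2976 other genes tested for the stage change the median was 0%, and 1.08% of them exceeded 75%, as did 68 of the 84 members. In 78 mitochondrial ribosomal protein genes, whose products build the separate ribosome of that organelle, the median was 0.0492%. Lengths of 24 and 32 bases gave 93.0% and 89.8% for the members.

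Footprint counts were found where the members had windows of their own. The 16 members with under 75% shared windows held 71.9% of the WT GV member footprints and 29.9% of their acRIP-seq fragments. The 23 members with every window shared held 0.797% of the footprints over all 11 libraries, 24 counts of 3012, and 16.5% of the acRIP-seq fragments, 1242 counts. Across the 84 genes Spearman's rho between the number of windows without a copy and the WT GV counts was 0.65, beside 0.31 for the acRIP-seq counts; the points share libraries, and genes are not replicates. All windows of Rpl5 and 97.5% of those of Rpl11 were shared, beside 0% in Rpl3l, 11.6% in Rpl8, 15.9% in Rpl39l and 24.3% in Rps3. Counting in the acRIP-seq files listed 0 alignments as not unique, and the study describes counting unique alignments for its RNA-seq, with another counter. For these Ribo-seq and acRIP-seq files the handling of reads with several matches is not given in the sources used here, and its part in the counts was not tested. Among the members with no footprint, 13 had no window of their own, while Rpl3l, Rps10, Fau and Rps27 had 1194, 117, 26 and 19.

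**Figure D2:**
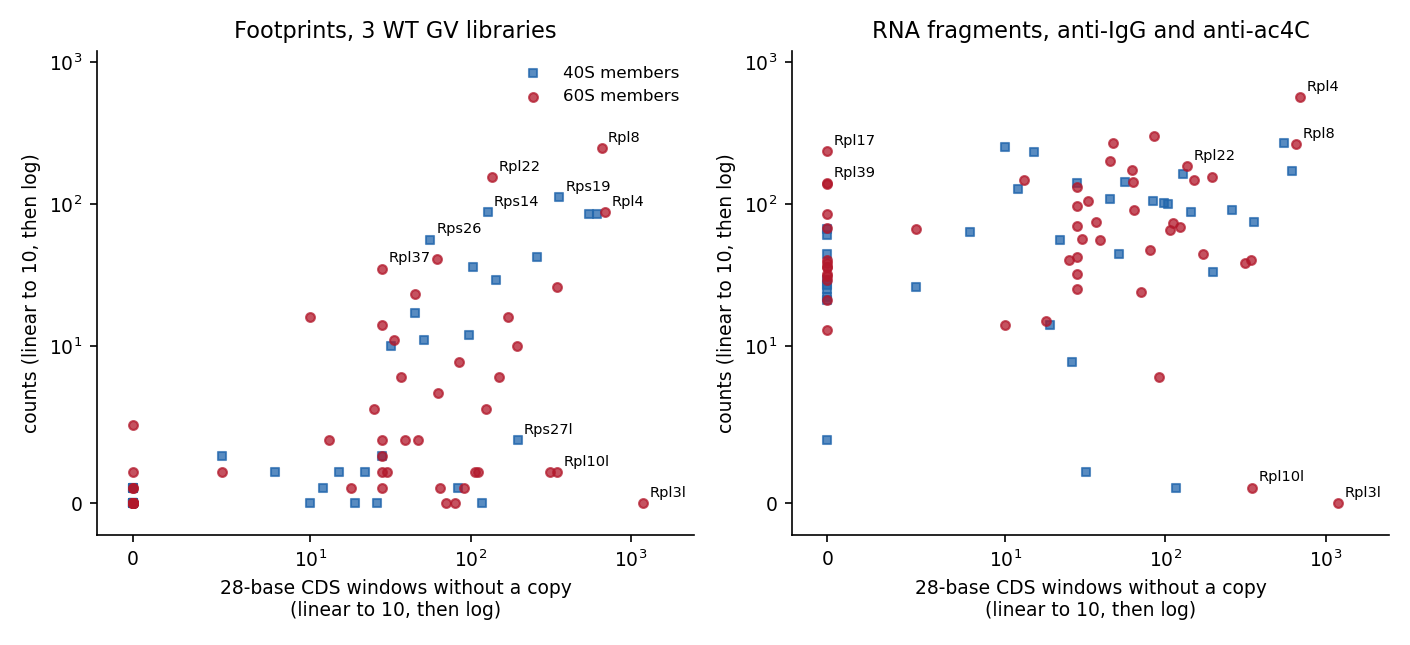
Counts of each of the 84 genes (y axis) against its number of 28-base CDS windows with no exact copy elsewhere (x axis), both linear up to 10 and logarithmic above, for footprints of the 3 WT GV libraries (left) and for RNA fragments of both acRIP-seq libraries (right). Members without a window of their own, at the left edge, have 0 to 5 footprints but up to 236 RNA fragments, while Rpl8 and Rpl22 lead the footprints.

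Counted per 100 windows without a copy, the level of the members was higher than per 100 bases of CDS. All members together had 3.02 WT GV counts per 100 bases of CDS and 16.1 per 100 such windows, whereas 2957 other tested genes with at least 100 such windows had 6.35 and 6.59. Among the 22 members with at least 100 such windows, the median was 8.46 counts per 100 windows, and the range ran from 0 in Rpl3l and Rps10 to 68.0 in Rps14 and 112 in Rpl22. The median over those other genes was 2.97. Footprints can be longer or shorter than 28 bases, so these are approximate densities.

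The paralogs that tissues swap for the common form had few footprints, although Rpl10l, Rpl7l1 and Rpl39l have sequence of their own. In Rpl22l1, 91.9% of the windows were shared. Rpl10l, an autosomal copy of Rpl10 used in male germ cells, had 2 counts over the WT GV libraries on 347 windows without a copy. Rpl7l1, a nucleolar relative of Rpl7, had 2 counts on 314, Rpl39l had 2 on 106, and Rpl22l1 had 4 on 28. Their common forms Rpl10, Rpl7, Rpl39 and Rpl22 had 6, 16, 0 and 154 counts on 25, 171, 0 and 137 windows. Rps27l, a paralog of Rps27 that p53 induces, had 4 counts over WT GV and Rps27 none. Rpl36al, which was not a member by the rule, had 7 WT GV counts and Rpl36a had 0; all windows of Rpl36a were shared.

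The genes that encode a ribosomal protein fused to a ubiquitin-like part gave almost no footprints. Rps27a had 1 count in all 11 libraries and Fau had 0. All windows of Rps27a and 93.5% of those of Fau were shared, and they had 21 and 9 RNA fragments in acRIP-seq. Of the stalk genes, Rplp0 had 10 WT GV counts, Rplp1 had 41 and Rplp2 had 8. Of the genes whose mRNA or poly(A) tail the study followed by other assays, Rps14 had 87 WT GV counts, Rpl32 had 11, Rpl10 had 6, Rpl5 had 5, Rpl11 had 4, Rpl34 had 2, Rpl35a had 1 and Rps29 had 0.

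From GV to MII the footprint share of the ribosomal proteins was lower in Nat10-ZcKO, and in 1 of the 2 WT MII libraries. WT MII replicate 1 was at 0.0460%. The Nat10-ZcKO MII libraries had values of 0.0601, 0.0961 and 0.0413%. The highest of these 4 lay below the lowest GV library, at 0.234%. WT MII replicate 2 was at 0.353%, within the GV range, from 17 counts on 2 genes, 11 on Rpl4 and 6 on Rps26, with an exact interval of 0.206 to 0.565%. Over all libraries the mean was 0.289% ± 0.0557 (SD, n = 6) in GV and 0.119% ± 0.132 (SD, n = 5) in MII, a 2.43-fold difference. Without WT MII replicate 2 the MII mean was 0.0609% ± 0.0248 (SD, n = 4) and the difference 4.75-fold, and without all 3 libraries that stand apart it was 4.66-fold. Within WT the GV mean was 1.31-fold the mean of both MII libraries (0.200% ± 0.217, SD, n = 2) and 5.70-fold the value of replicate 1 alone, so the WT difference rests on that library. Within Nat10-ZcKO it was 4.81-fold the MII mean. No test was made of this sum, because its genes were chosen. In libraries scaled to a total, a lower share cannot be told apart from a higher number of footprints on other genes, nor less mRNA from lighter translation.

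The direction was shared by nearly all members that gave any count. Of 66 members with a count, 63 had a lower mean CPM in the 4 deeper MII libraries than in the 6 GV libraries. Among all other genes with a count 66.7% were lower. Without the 3 libraries that stand apart 61 of 65 members were lower, beside 55.7% of other genes. Over the 5 MII libraries 34 of the 84 gave at least 1 footprint, beside 11147 of all 22442 genes. The remaining 50 include the 18 members that lacked footprints at GV too and so carry no direction. Of the 66 members, 9 had their highest CPM in those 4 MII libraries below their lowest in the 6 GV libraries, beside 3.73% of 13685 genes with a count in any library. Among the 9 were Rpl8, Rps3, Rps19, Rps9, Rps26, Rpl37 and Rpl4. The 3 members with a higher MII mean were Rps27l, Rpl15 and Rpl7l1, with 17, 5 and 2 counts in those MII libraries.

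The edgeR quasi-likelihood fit of stage over both genotypes tested 14 members, and 70 did not pass its filter on low counts. Rpl8 was at 412, 537 and 385 CPM in WT GV, at 755, 309 and 678 CPM in Nat10-ZcKO GV, at 44.5 and 0 CPM for WT MII and at 63.8, 102 and 25 CPM in Nat10-ZcKO MII. Every GV library was above every MII library. Its log2 change was -3.40 ± 0.94 (SE), with a Benjamini-Hochberg adjusted p of 0.00383. With no filter on low counts it was -3.39 ± 1.15 (SE; edgeR adjusted p = 0.0817).

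Rps3 was at 117, 175 and 198 CPM in WT GV, at 496, 271 and 256 CPM in Nat10-ZcKO GV, at 22.2 and 0 CPM for WT MII and at 37.2, 61.3 and 6.26 CPM in Nat10-ZcKO MII. The 6 GV libraries lay above the 4 deeper MII libraries, and its log2 change was -3.17 ± 0.81 (SE; edgeR adjusted p = 0.00170). Rps19, mutated in Diamond-Blackfan anaemia and needed to mature the 40S, was at 220, 197 and 250 CPM in WT GV, at 142, 135 and 354 CPM in Nat10-ZcKO GV, at 22.2 and 0 CPM for WT MII and at 37.2, 68.2 and 12.5 CPM in Nat10-ZcKO MII. Again none of the 4 deeper MII libraries reached a GV library, with a log2 change of -2.90 ± 0.79 (SE; edgeR adjusted p = 0.00359).

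Rps9, a 40S protein needed for accurate decoding, fell as well, with a log2 change of -3.17, as did Rpl13a (-3.28), Rpl37 (-3.17), Rps26 (-2.57) and Rps14 (-2.12). The CDS of Rpl13a overlaps that of another annotated gene on the same strand over 90.3% of its length, so its counts are uncertain.

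In all, 10 of the 14 tested members were called lower at an adjusted p under 0.05 and 0 higher, beside 20.9% of 2991 genes lower and 12.6% higher. Their median log2 change was -2.85, against -0.48 over all genes tested. Of the 14, 12 passed the filter only with the GV libraries in the fit. Such a filter favours genes that are higher in GV, so this count and median carry no weight as evidence on the 84. The p-values of single members among these 12 carry the same limit. Scaling by library size alone put the median of all genes at -0.30 and DESeq2 put it at -0.86. They called 9 and 11 members lower, beside 698 and 1288 of 2991 genes. Relative to the median of all genes, the median member was lower under each of the 3. All 3 tested the same 14 members, so this carries no weight as evidence either. Leaving out the 3 libraries that stand apart gave 13 of 14 lower, with all but Rps2 past the threshold, beside 1050 of 3094 genes lower. Leaving out WT MII replicate 1 left 5 of 16 tested members called, beside 231 of 3778 genes lower. Leaving out Nat10-ZcKO GV replicate 3 left 6 of 12, beside 297 of 2768 genes lower. Rps14 and Rps26 were no longer past the threshold when either of these libraries was left out, and Rpl13a and Rps19 were no longer past it without WT MII replicate 1.

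**Figure D3:**
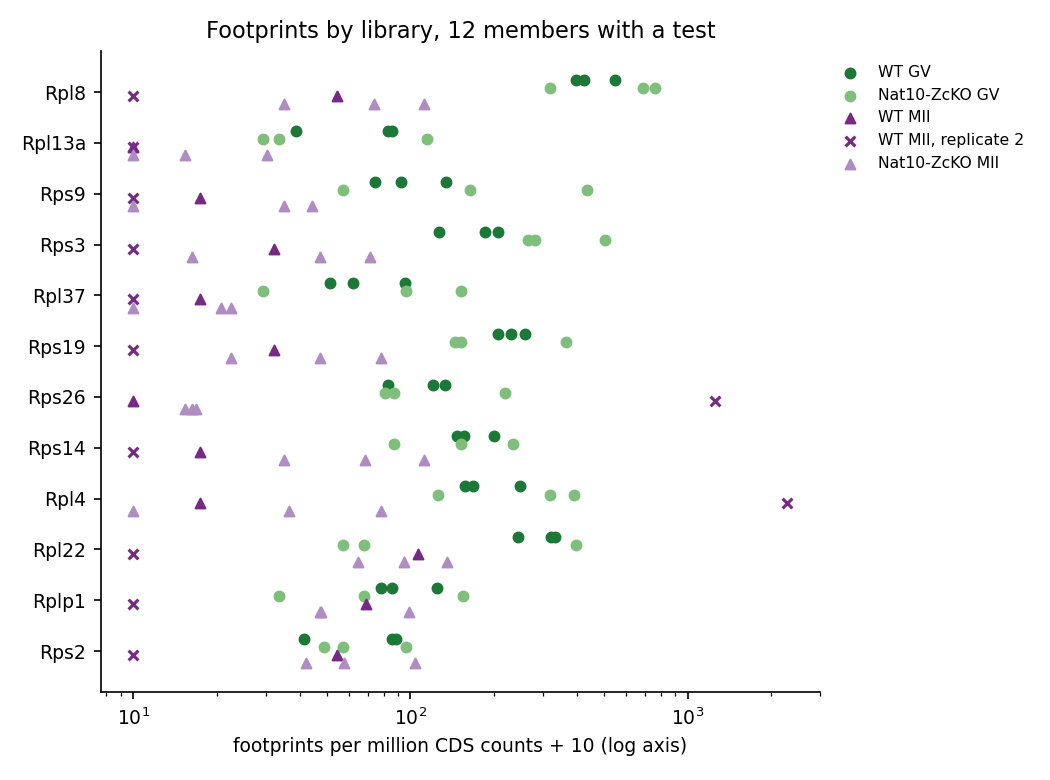
CPM plus 10 (x axis, log scale) of 12 of the 14 tested members (y axis, ordered by fitted change), 1 symbol per library, circles for GV, triangles for MII and a cross for WT MII replicate 2. GV libraries lie to the right of the deeper MII libraries in the rows from Rpl8 to Rpl4 except Rpl13a and Rps14, while Rpl22, Rplp1 and Rps2 overlap, and the cross is far right only for Rpl4 and Rps26.

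The other 4 tested members were not called. Rps2, a 40S protein at the mRNA entry, was at 75.6, 78.7 and 31.2 CPM in WT GV, at 47.2, 38.7 and 86.6 CPM in Nat10-ZcKO GV, at 44.5 and 0 CPM for WT MII and at 31.9, 47.7 and 93.9 CPM in Nat10-ZcKO MII. The stages overlapped throughout, and the log2 change was -0.44 ± 0.70 (SE; edgeR adjusted p = 0.627). Rplp1 was at 75.6, 68.0 and 114 CPM in WT GV, at 23.6, 58.0 and 144 CPM in Nat10-ZcKO GV, at 59.3 and 0 CPM for WT MII and at 37.2, 88.6 and 37.6 CPM in Nat10-ZcKO MII, which also overlapped, with a log2 change of -0.85 ± 0.67 (SE; edgeR adjusted p = 0.314). Its partner in the stalk, Rplp2, had a mean of 30.9 CPM over the GV libraries and 21.4 CPM over the 4 deeper MII libraries.

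Rpl22 was at 234, 322 and 312 CPM in WT GV and at 47.2, 58.0 and 386 CPM in Nat10-ZcKO GV, against 96.4 and 0 CPM for WT MII and 85.1, 54.5 and 125 CPM in Nat10-ZcKO MII. The 2 low GV values were those of Nat10-ZcKO GV replicates 1 and 2. Its log2 change was -1.54 ± 0.76 (SE; edgeR adjusted p = 0.0986), and -2.09 ± 0.36 (SE; edgeR adjusted p = 2.86e-05) without the 3 libraries that stand apart. Rpl4 changed by -1.69 ± 0.77 (SE; edgeR adjusted p = 0.0738) with WT MII replicate 2 at 2285 CPM, and by -2.79 ± 0.62 (SE; edgeR adjusted p = 0.000504) without the 3 libraries. Rplp1 also passed without them, at -1.25 ± 0.48 (SE; edgeR adjusted p = 0.0247).

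The members thus spanned a wide range of changes. Among the 23 with at least 20 GV counts, the ratio of the mean CPM in 6 GV to that in the 4 deeper MII libraries was 1.09 in Rps2, 1.44 in Rplp2, 1.45 in Rplp1, 2.51 in Rpl22 and 2.59 in Rps21, and 20.8 in Rpl14 and 24.1 in Rps26, with a median of 6.17. The ratios at the upper end rest on 1 MII count for Rpl14 and 3 for Rps26. Differences in change between members were not tested. Rps27l stood out in the other direction, with 1, 2 and 1 counts in WT GV, 0 in each Nat10-ZcKO GV library, 1 and 0 in WT MII, against 9, 5 and 2 for Nat10-ZcKO MII. It entered the fit only when genes with at least 10 counts were kept, with a log2 change of 2.09 ± 1.19 (SE; edgeR adjusted p = 0.243), so no change was shown.

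Markers of other cells moved with the stage as well. In the 4 GV libraries that do not stand apart, 9 stroma and smooth muscle markers (Col1a1, Col1a2, Col3a1, Myh11 and others) took 0.112 to 0.174% of counts, and in the 4 deeper MII libraries 0.0119 to 0.0232%, with 0 to 3 and 2 to 5 of the 9 at 0. For 15 granulosa and cumulus markers the summed ranges were 0.228 to 0.446% and 0.177 to 0.489%, but single markers moved both ways. Over the same 4 GV and 4 MII libraries, Ptx3, Tnfaip6 and Ptgs2, genes of the expanding cumulus, were higher in every MII than in every GV library, and Amh, Amhr2, Foxl2 and Inhba lower in every one. Ptx3 had 62 to 285 counts in these MII libraries and at most 1 in the GV libraries.  Of the 12 oocyte markers, 7 (among them Zp1, Zp2, Zp3 and Padi6) were lower in every MII library and 3 (Gdf9, Oosp1 and Mos) higher in every one. The part of these moves in the lower share of ribosomal proteins was not tested.

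Within WT alone, 4 of 11 tested members fell, and 0 rose, beside 11.5% of 2045 genes lower and 9.98% higher. They were Rps14 (log2 change -3.96 ± 1.22 SE, edgeR adjusted p = 0.0131), Rps19 (-2.93 ± 1.02, 0.0279), Rpl8 (-3.06 ± 1.18, 0.0475) and Rps9 (-3.04 ± 1.19, 0.0487). Rps3 missed the threshold at -2.49 (edgeR adjusted p = 0.0502). These calls hang on single libraries: without WT GV replicate 1, 2 or 3 there were 1, 0 and 1 calls. Over all genes, 144 of 1587, 35 of 1543 and 115 of 1835 were lower. Without WT MII replicate 1 the median of the tested members was -7.07, where that of all genes was -6.85. Without WT MII replicate 2 these medians were -3.03 and -0.35. The fits without a WT MII library hold 1 sample in that arm, which is assumed to vary like the GV group. With the replicate number as a block none of the 11 was called, nor any other gene. Rpl4 was at 1.01 and did not pass, and without WT MII replicate 2 all 14 tested members were below 0.

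Within Nat10-ZcKO, 6 of 8 tested members fell, and 0 rose, beside 6.02% of 2225 genes lower and 10.2% higher. The log2 change was -4.60 in Rps26, -3.41 in Rpl8, -3.39 in Rps3, -3.09 in Rpl4 and -2.84 in Rps19, with edgeR adjusted p from 0.0145 to 0.0402. Rpl22 and Rps14 were at -1.45 and -1.65 and did not pass. Leaving out any 1 of the 3 Nat10-ZcKO MII libraries left 0 members called, and 0 genes of any kind. Leaving out Nat10-ZcKO GV replicates 1 and 2 left 1 GV library, assumed to vary like the MII group. The median log2 change was then -3.32 over 15 tested members and 0.11 over all genes tested. With the replicate number as a block 3 members were called, beside 34 of 2225 genes lower. The filters of both fits again let members in through the GV side.

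No difference between the genotypes was detected for any member by the edgeR fits with TMM scaling and all libraries. In GV oocytes 0 of 11 tested members passed edgeR and 0 had an unadjusted p under 0.05, beside 0.0% of 1765 genes called in either direction. DESeq2 called 0, with 1 at an unadjusted p under 0.05, but it gave no adjusted p for 1117 of these 1765 genes. The member with the smallest edgeR p was Rps3, with a log2 difference of 1.12 ± 0.55 (SE; edgeR adjusted p = 0.900). Its mean was 163 ± 41.7 CPM (SD, n = 3) in WT and 341 ± 134 CPM in Nat10-ZcKO. The median over the 11 was 0.46, against -0.06 over all genes tested. Rps9, at 1.14 ± 0.75 (SE; edgeR adjusted p = 0.900), had an unadjusted p of 0.159, so differences of this size or somewhat above it could be missed. Leaving out the 2 libraries that stand apart left 1 Nat10-ZcKO library, assumed to vary like the WT group. The median was then 0.73 over 18 tested members and -0.04 over all genes tested. Without Nat10-ZcKO GV replicate 3 only Rpl22 of 10 tested members passed, beside 188 genes lower and 197 higher of 1858. Its log2 difference was -2.60 ± 0.62 (SE; edgeR adjusted p = 0.0236).

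In MII oocytes only Rpl22 and Rpl4 had enough counts to be tested, and neither passed, beside 0.191% of 2097 genes lower and 0.0% higher. Rpl22 differed by -0.02 ± 0.86 (SE; edgeR adjusted p = 0.997). Rpl4 differed by -3.12 ± 1.06 (SE; edgeR adjusted p = 0.443, unadjusted p = 0.00324), from the 11 counts in WT MII replicate 2, and DESeq2 gave 0 members at an unadjusted p under 0.05. With that library as the only WT MII sample the log2 difference of Rpl4 was -3.49, where the median of all genes tested was 6.52. That fit assumes the lone sample to vary like the others. The summed share in WT MII replicate 1 (0.0460%, exact 95% interval 0.0353 to 0.0589%) lay between those of the Nat10-ZcKO MII libraries, 2 of which, at 0.0601 and 0.0961%, were above it and 1, at 0.0413%, below. With 1 usable WT library a difference of this size cannot be tested. The interaction of stage and genotype was tested for 16 members. By edgeR 0 passed and 0 had an unadjusted p under 0.05, beside 0.880% of 3863 genes lower and 0.0259% higher. DESeq2 called 0, with 2 at an unadjusted p under 0.05, but it gave no adjusted p for 1379 of these 3863 genes. Without WT MII replicate 1, the interaction of Rps26 was -4.14, where the median of all genes tested was 5.39. Rps26 had 6 counts in the 1 WT MII library that remained.

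Other translation genes and the mitochondrial ribosome were read beside the members in the fit over both genotypes, where 20.9% of 2991 genes were lower, 12.6% were higher and the median log2 change was -0.48. The same filter on low counts applied, so these counts too describe only genes with enough footprints. Of 21 further genes of translation, many of them also TOP mRNAs, 11 were tested and 7 fell, with a median log2 change of -2.41, among them the elongation factors Eef1a1 (-3.23 ± 0.79 SE, edgeR adjusted p = 0.00114) and Eef2 (-2.83 ± 0.99, 0.0206) and the initiation factor subunit Eif3h (-3.18 ± 0.77, 0.00105). Rack1, a scaffold on the 40S, was at -1.0 ± 0.72 and did not pass. Npm1, the nucleolar chaperone of ribosome assembly, was at 104 to 117 CPM in WT GV and 245 and 0 CPM at WT MII, and at 61.3 to 213 and 479 to 914 CPM in Nat10-ZcKO GV and MII. It rose within Nat10-ZcKO (log2 change 2.34 ± 0.73 SE, edgeR adjusted p = 0.0468) and was at 1.61 ± 0.89 over both genotypes (0.140). Of 78 mitochondrial ribosomal protein genes, 11 were tested and 7 fell, with a median of -2.17 and changes from Mrpl12 (-3.78) to Mrps25 (-1.82), while Mrpl24 was at 0.89 and did not pass. As a share of counts, the mitochondrial set was 2.10-fold and the 21 translation genes 2.0-fold higher in GV than in the 4 deeper MII libraries, beside 4.75-fold for the cytosolic set; these differences between sets were not tested.

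**Figure D4:**
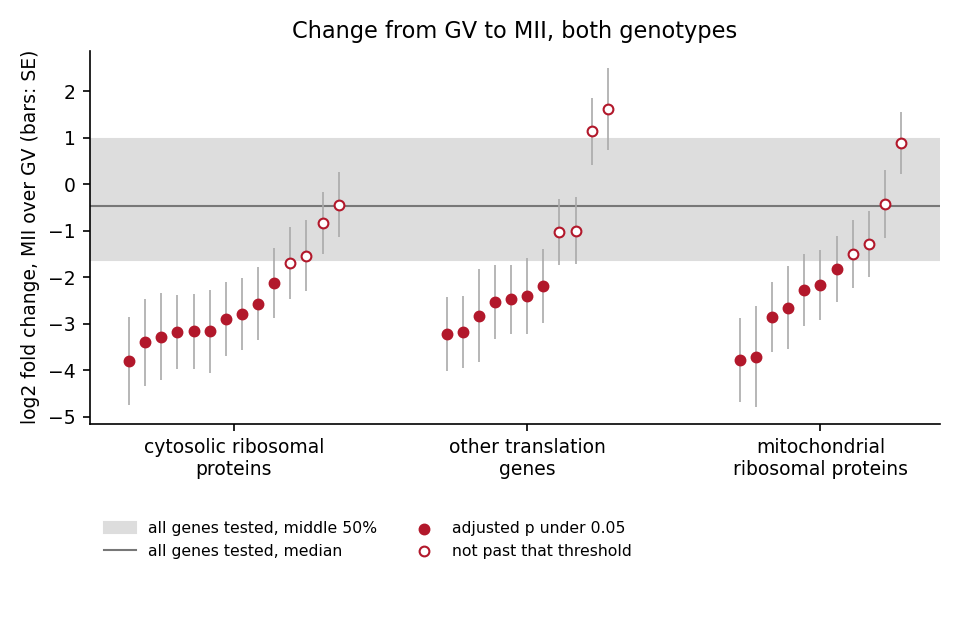
Log2 fold change from GV to MII over both genotypes (y axis, with standard errors) of every tested gene of the 3 lists (x axis), filled where the adjusted p was under 0.05, over a grey band for the middle 50% of all genes tested and their median. The cytosolic ribosomal proteins all lie below 0, up to -0.44, and the other lists reach similar depth but also hold genes above 0.

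The genes whose profile over the 11 libraries was most like that of the summed members, by Pearson's r of log2(CPM + 10) among 3831 genes with at least 50 counts in all, were Dnajc7 (r = 0.93), Col3a1 (0.90), Prrc2a (0.87), Slc12a7 (0.86) and Atp5j2 (0.84). The 11 points share the 2 stages and include WT MII replicate 2, where Col3a1 had 11 of the 4815 counts.

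In acRIP-seq the ribosomal protein mRNAs made up more of the control than of the ac4C library. They took 1.37% of the anti-IgG counts (1593 of 116232) and 0.612% of the anti-ac4C counts (5939 of 970997), a ratio of CPM of 0.446 with an exact 95% interval of 0.422 to 0.472, which covers counting error only. With 1 library each there is no replicate check. The ratio was 0.392 (0.359 to 0.430) for the 40S set and 0.482 (0.449 to 0.518) for the 60S set. It was 0.693 (0.634 to 0.759) for the 78 mitochondrial ribosomal protein genes and 0.832 (0.757 to 0.916) for the 21 translation genes.

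Of the 84 members, 47 had at least 50 counts over both libraries, with a median ratio of 0.601, against 1.27 over all 4680 such genes. The ratio was under 0.5 in 22 of the 47, beside 13.4% of all, and above 2 in 6, beside 32.8%. The upper bound was under 1 in 24 members, beside 19.2% of all, and the lower bound above 1 in 6, beside 32.9%. Short genes also tended to low ratios: the median over 574 other genes with a CDS of 138 to 700 bases was 0.884, and 33.3% of them had an upper bound under 1. Fragment selection, length and antibody binding cannot be told apart in these libraries.

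Among the lowest ratios were those of Rps12 (0.111, from 50 anti-ac4C and 54 anti-IgG counts), Rpl11 (0.113, 72 and 76), Rpl26 (0.132, 141 and 128) and Rps26 (0.146, 78 and 64). Rpl11 and Rpl26 are known for ties to the p53 response, and Rps12 and Rps26 are small 40S proteins. The upper bounds of these 4 ran from 0.159 to 0.206. At the other end, Rps9 had 91 anti-ac4C and 0 anti-IgG counts and Rplp2 had 75 and 0, and their lower bounds were 2.89 and 2.37. Rps21 had 104 and 4 counts (ratio 3.11, interval 1.18 to 11.6) and Rpl17 had 224 and 12 (2.23, 1.25 to 4.39), and Rps3 followed with 162 and 9 (2.15, 1.11 to 4.80). The members were thus spread widely, and Rpl4, with the most counts of all (509 and 57), was at 1.07 (0.812 to 1.43). Of the genes followed by other assays, Rpl5 was at 0.204, Rpl34 at 0.221, Rps14 at 0.656 and Rpl32 at 1.13.

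**Figure D5:**
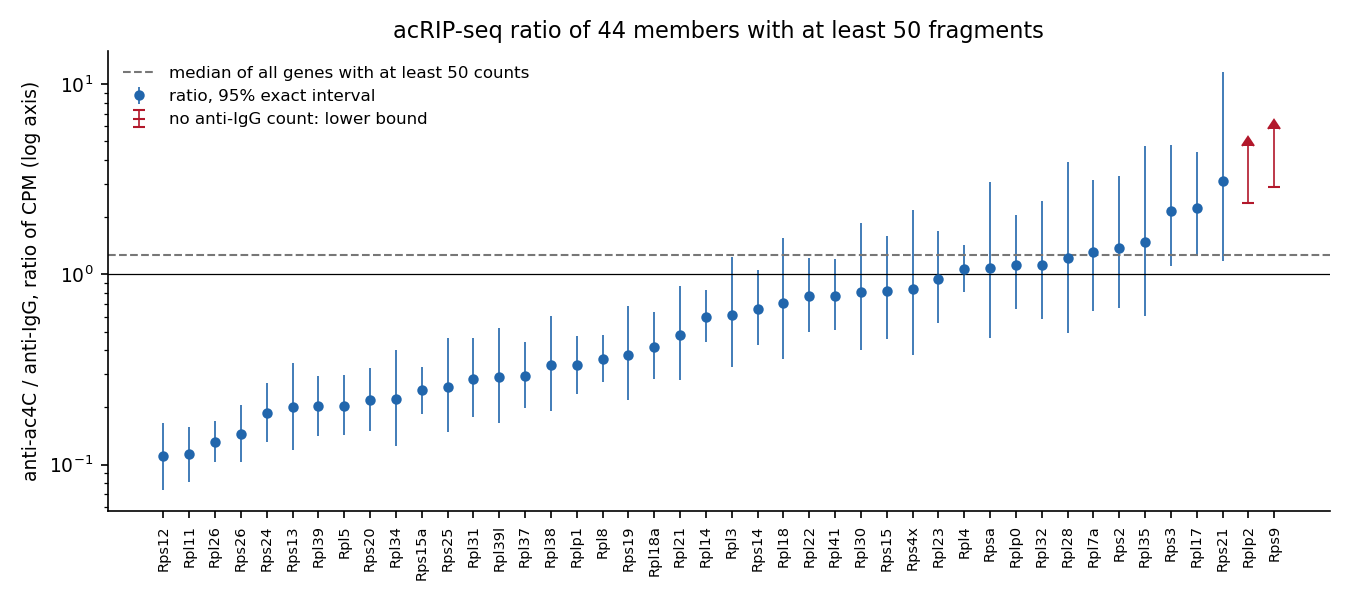
Ratio of CPM between the anti-ac4C and the anti-IgG library (y axis, log scale) for 44 of the 47 members with at least 50 counts (x axis, ordered by ratio), with exact 95% intervals, a solid line at 1 and a dashed line at the median of all such genes, 1.27. The 2 members without an anti-IgG count, Rplp2 and Rps9, are drawn as arrows from their lower bounds, and 31 of the members drawn lie under 1.

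The members' share of WT GV footprints was smaller than their share of RNA fragments from oocytes of the same stage. It was 0.262% ± 0.0170 (SD, n = 3) of footprints against 1.37% of anti-IgG and 0.612% of anti-ac4C fragments, that is 5.23-fold and 2.33-fold lower. In the 22 members with at least 100 windows without a copy the shares were 0.199% ± 0.0193 (SD, n = 3) of footprints, 0.334% of anti-IgG and 0.232% of anti-ac4C fragments, so the differences were 1.68-fold and 1.17-fold. The footprint counts cover the CDS, whereas acRIP-seq counted fragments of poly(A)-captured mRNA per gene, in libraries made in different ways, and no test was made.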

How the data were processed

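Ribo-seq measured footprints in 11 mouse oocyte libraries. For acRIP-seq, 1 library was made with each antibody, anti-ac4C and anti-IgG. Groups are those of the labels. The authors deposited raw counts per gene, 1 library each; the submitters' processing notes name cutadapt, STAR, HTSeq and mm10, without versions, and steps against PCR duplicates and rRNA are not given in the sources used here. The 5 summary rows of each acRIP-seq library, with 46.7% (anti-IgG) and 17.1% (anti-ac4C) of its counts on no feature, were left out.

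Identifiers were matched without version to GENCODE M21, and 22399 of 22442 matched. Tests used edgeR 4.0.16 (R 4.3.3) on all genes: filterByExpr, TMM, glmQLFit and glmQLFTest, with Benjamini-Hochberg adjustment over all genes tested. The stage fit over both genotypes held genotype as a covariate and all 11 libraries; the others held the libraries compared. A standard error was taken as the size of the log2 change over the root of its F statistic, and DESeq2 1.42.0 was an alternative. On simulated data with 8-fold changes edgeR called 168 of 168 changed genes that passed the filter over both genotypes (2761 genes). For the interaction it called 107 of 181 (3145 genes). It also called 13 and 7 unchanged genes. The simulated spread was smaller than the common dispersion fitted here, 0.464 and 0.499, so these counts do not measure power in these libraries. Shares and ratios have exact Clopper-Pearson intervals at 95%. Sequences are from the GRCm38.p6 assembly and RefSeq, computed in Python 3.11.15 with numba 0.67.0.

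Named genes are the 10 highest in WT GV, members past the threshold, paralog pairs, stalk and fusion genes, genes the study followed by other assays, and the 5 highest and lowest acRIP-seq ratios. Rpl15, Rpl14, Rps2, Rps10 and the mitochondrial genes were named after their values were seen. The members, lists and tests were chosen with earlier results of these data known. Some items that these rules would name are not reported here.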

Additional observations from a re-analysis of the deposited data

How the results depend on the processing

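For the 14 members tested over both genotypes and the members called within a genotype, 369 repeats of their stage change under the alternatives kept the direction, and 90 lost and 9 gained a call. For the change over both genotypes (10 members called), no filter on low counts left 1, beside 178 of 13685 genes lower. Leaving out 1 library gave 5 to 11. In WT (4 called) DESeq2 and library size scaling gave 7 each, beside 844 and 648 of 2045 genes lower. No filter, a filter of at least 10 counts in all, the replicate block and all 11 libraries in one fit gave 0 each. Leaving out 1 WT GV library gave 0 to 1. In Nat10-ZcKO (6 called) no filter, the filter of 10 counts and all 11 libraries in one fit gave 2 each, the block 3, leaving out the libraries that stand apart 12, and leaving out 1 library 0 to 5. For genotype at GV, leaving out 1 library gave 0 to 1 call. At MII leaving out 1 Nat10-ZcKO library gave 0, and library size scaling gave 1, Rpl4, beside 24 of 2097 genes lower. For the interaction, leaving out 1 GV or 1 Nat10-ZcKO MII library gave 0. More genes tested or fewer samples enter by construction where the filter or the libraries change; otherwise the cause was not tested. Whether the replicate numbers pair the libraries is not settled. Same-numbered libraries of 2 groups correlated in their deviations at -0.03 to 0.15, too few and too shallow to exclude a pairing. With the block 9 of the 10 calls over both genotypes were made, Rps14 being lost (edgeR adjusted p = 0.0659). Between genotypes the block gave 0 at GV and at MII.

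The log2 ratio of the MII to the GV mean share, -1.28 over all libraries, was -1.06 to -2.25 with 1 library left out and -2.22 without the 3 libraries that stand apart (added after seeing the data). The ac4C/IgG ratio of 0.446 became 3.73 unscaled, 0.497 with TMM and 0.696 with counts on no feature in the totals, so its side of 1 depends on scaling for depth. The median member ratio of 0.601 was 0.485 at a minimum of 100 counts. The log2 ratio of footprint to anti-IgG share, -2.39, was -1.22 against anti-ac4C. Depth limits all of this: 70 members were too low for the stage fit.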
